A study of Homo sapiens with 54 samples.

Results

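WNT4, TNFSF11, AREG, ELF5, STAT5A and STAT5B were examined as the genes that carry the progesterone signal through the mammary epithelium. The 6 members were taken by name from the 20037 protein-coding genes of chromosomes 1 to 22, X and Y in RefSeq, and every deposited peak within 50 kb of a gene span was assigned to it. This gave 306 distinct peaks out of 518593. All samples were T47D cells, an established human breast cancer line that is positive for the oestrogen and progesterone receptors. Each was given ethanol vehicle or R5020, a synthetic progestin, for 1 h. Chromatin immunoprecipitation and sequencing (ChIP-seq) was done for the progesterone receptor (PR) and for acetylated lysine 27 of histone H3 (H3K27Ac), a mark of active promoters and enhancers. It was also done for Maf1, a repressor of RNA polymerase III, for Brf1, an initiation factor of that polymerase, and for its subunits POLR3A and POLR3C and the paralogues POLR3G and POLR3GL. The labels list 54 libraries in 18 groups of 3, of which 6 libraries are inputs. The deposited results are 16 peak lists, 1 for each antibody and treatment. No list carries a replicate value, so the differences below have no replicate error and no p-value. The lists hold no read counts, and the depth behind them is unknown.

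In the mammary gland, progesterone acts on a minority of luminal cells that hold its receptor, and these cells instruct their neighbours through secreted factors. WNT4 is a Wnt ligand tied to side branching. TNFSF11 encodes RANKL, the ligand that drives receptor-negative progenitors to divide. AREG encodes amphiregulin, a ligand of the epidermal growth factor receptor that is best known for ductal growth under oestrogen. ELF5 is an ETS transcription factor of the alveolar lineage. STAT5A and STAT5B transmit prolactin and growth hormone signals, and STAT5A in particular is needed for alveoli to form. A single luminal tumour line contains the sending cells but no stroma, basal layer or separate receptor-negative luminal cells. H3K27Ac peaks lay within 1 kb of 7 of 7 luminal marker genes in both lists and reached a fold of 10 at each. Of 5 basal markers, KRT5 and KRT14 had none, while KRT17, TP63 and ACTA2 had one in both lists, above a fold of 10 at TP63 and ACTA2. Fibroblast markers had one at 3 of 3 genes with vehicle and at 2 with R5020, above a fold of 10 at COL1A1 in both lists. The 3 blood markers had only peaks below a fold of 10. Of all coding genes 75.1% had such a peak with vehicle and 75.9% with R5020, and 47.6% had one of fold 10 or more with vehicle.

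The sequences before the start sites are shown because PR, Maf1 or H3K27Ac peaks covered the start window of each gene in at least 1 list. A start window runs from 250 bases before a RefSeq start to 50 bases after it, and distances are from the most upstream start of each gene in that table. The lines below give the 250 bases before the start, 5′ to 3′ along the gene, from RefSeq GRCh38.p14. They are WNT4 at chr1:22143098-22143347 on the minus strand, TNFSF11 at chr13:42562486-42562735 on the plus strand, AREG at chr4:74444886-74445135 on the plus strand, ELF5 at chr11:34511725-34511974 on the minus strand, STAT5A at chr17:42287189-42287438 on the plus strand and STAT5B at chr17:42276392-42276641 on the minus strand. Capitals mark matches to AGAACA, TGACGTCA or TATAAA on either strand.
WNT4: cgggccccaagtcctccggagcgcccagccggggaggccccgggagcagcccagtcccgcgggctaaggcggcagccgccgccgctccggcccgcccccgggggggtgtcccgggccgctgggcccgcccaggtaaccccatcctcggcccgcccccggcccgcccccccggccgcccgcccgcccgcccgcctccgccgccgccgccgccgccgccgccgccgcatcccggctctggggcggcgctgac
TNFSF11: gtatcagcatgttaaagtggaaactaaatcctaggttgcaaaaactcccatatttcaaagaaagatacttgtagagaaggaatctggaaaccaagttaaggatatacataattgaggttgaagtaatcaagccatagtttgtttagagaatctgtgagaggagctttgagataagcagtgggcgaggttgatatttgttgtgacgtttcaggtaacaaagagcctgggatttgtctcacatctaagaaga
AREG: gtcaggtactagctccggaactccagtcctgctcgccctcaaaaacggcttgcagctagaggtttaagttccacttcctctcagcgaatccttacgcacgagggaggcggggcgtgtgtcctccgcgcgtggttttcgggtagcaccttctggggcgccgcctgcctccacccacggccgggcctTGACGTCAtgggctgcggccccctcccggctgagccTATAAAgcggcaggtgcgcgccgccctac
ELF5: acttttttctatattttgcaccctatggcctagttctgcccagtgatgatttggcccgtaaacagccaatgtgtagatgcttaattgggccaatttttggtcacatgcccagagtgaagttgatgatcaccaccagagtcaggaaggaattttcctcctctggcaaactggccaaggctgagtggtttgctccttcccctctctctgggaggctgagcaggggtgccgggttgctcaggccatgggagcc
STAT5A: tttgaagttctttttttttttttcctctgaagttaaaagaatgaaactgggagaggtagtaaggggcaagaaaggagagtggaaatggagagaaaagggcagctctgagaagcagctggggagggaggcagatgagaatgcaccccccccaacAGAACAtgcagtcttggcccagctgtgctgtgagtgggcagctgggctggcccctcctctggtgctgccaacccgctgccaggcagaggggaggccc
STAT5B: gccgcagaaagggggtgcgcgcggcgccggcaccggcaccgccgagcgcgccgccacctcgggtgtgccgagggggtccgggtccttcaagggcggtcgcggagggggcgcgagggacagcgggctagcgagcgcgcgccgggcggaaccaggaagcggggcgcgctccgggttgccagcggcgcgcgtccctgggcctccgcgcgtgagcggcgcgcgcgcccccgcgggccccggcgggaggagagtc

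AGAACA is the core of the site that the progesterone receptor shares with other steroid receptors. It was found in the STAT5A window alone, at bases -97 to -92 from the start, and in 11.7% of 22199 windows of coding genes. No PR peak covered that window. A paired site, AGNACA and TGTNCT 3 bases apart, was in none of the 6 and in 0.018% of all windows. TGACGTCA, the cyclic AMP response element, and TATAAA, the TATA box, were added to the search after the sequences had been seen. AREG held the first at -65 to -58 and the second at -29 to -24, against 2.26% and 9.47% of all windows. The 6 genes have 9 start windows in the table, and TATAAA also matched at -30 to -25 from the second start of TNFSF11, in the window chr13:42573902-42574201. The windows ranged widely in base composition, from 85.7% G and C at WNT4 and 82.0% at STAT5B to 40.3% at TNFSF11, with a median of 62.3% over all windows. A match to these letters is a description and not a site of binding.

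PR peaks near the 6 genes numbered 4 with vehicle and 83 with R5020. Vehicle peaks lay near AREG (3) and ELF5 (1) only, and 38.1% of coding genes had at least 1. R5020 peaks lay near all 6, which 96.9% of coding genes also had, and 96.9% had more R5020 than vehicle peaks. The direction was therefore that of nearly all genes. The whole lists held 6663 and 173129 peaks, and a deeper library cannot be told apart from more bound sites here. In bulk chromatin, more bound cells and more binding in each cell cannot be told apart either. All 4 vehicle peaks overlapped an R5020 peak. When only the 6663 R5020 peaks of highest -log10 q were kept, to match the length of the vehicle list, AREG had 3 in each list and WNT4 had 0 in each. ELF5 then had 1 with vehicle and 2 with R5020, TNFSF11 and STAT5A each had 0 and 1, and STAT5B had 0 and 2.

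**Figure D1:**
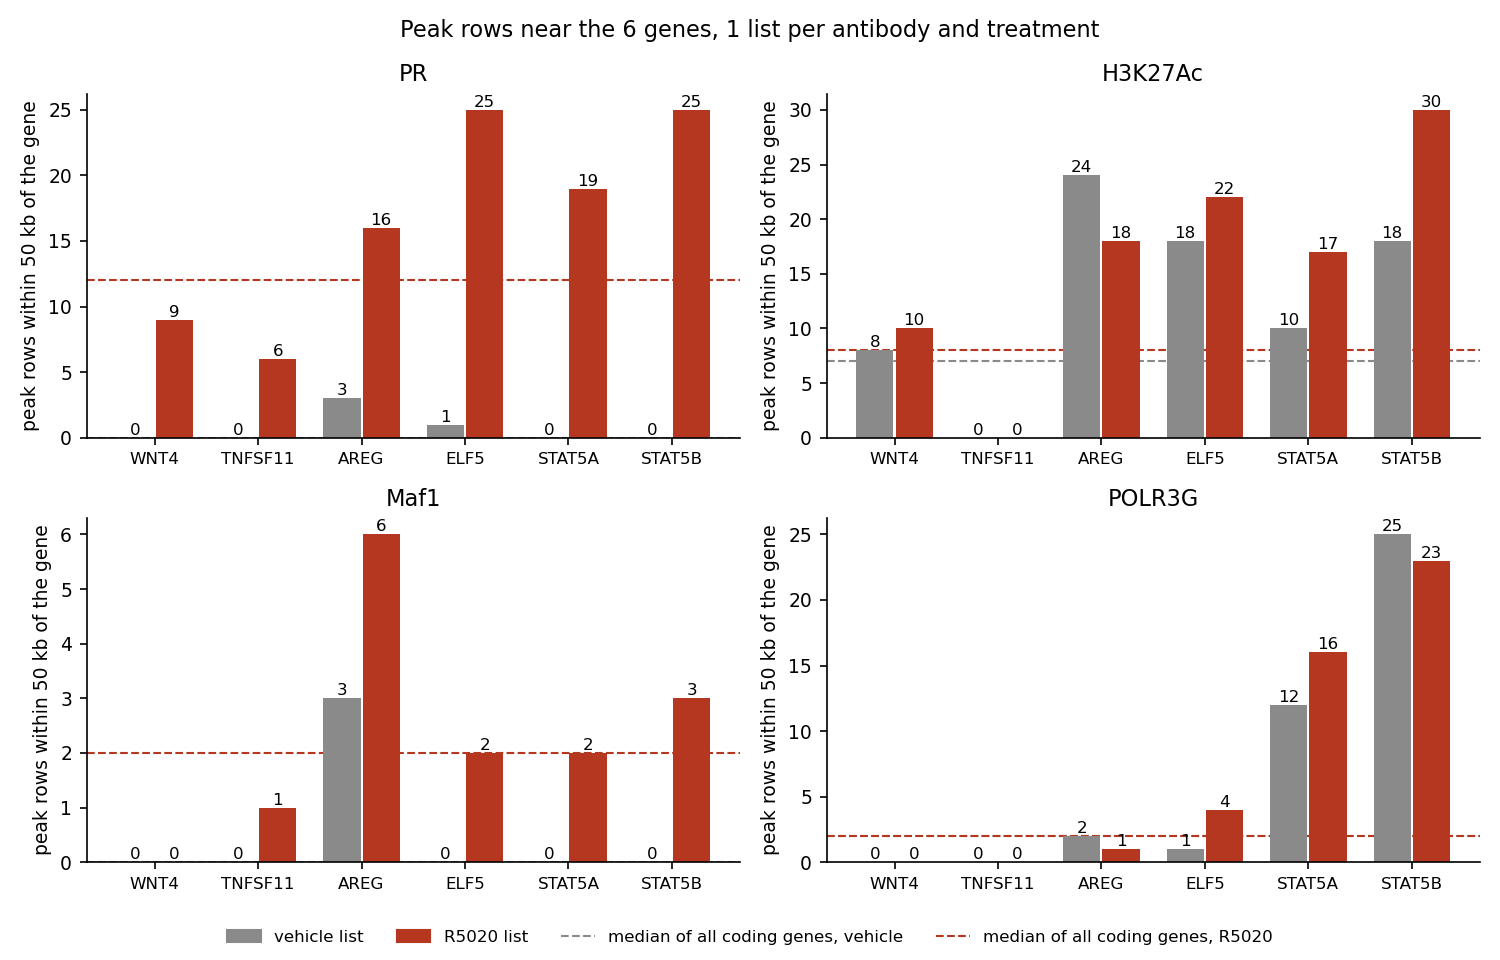
Number of peaks within 50 kb of each gene (vertical axis) in the vehicle list (grey) and the R5020 list (red) for PR, H3K27Ac, Maf1 and POLR3G. Dashed lines are the medians over all coding genes, and the vehicle and R5020 medians of POLR3G coincide at 2. PR counts were 0 to 3 with vehicle and 6 to 25 with R5020, and TNFSF11 had no H3K27Ac or POLR3G peak.

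By number, the 6 genes fell on both sides of the typical gene, whose median was 12 R5020 PR peaks. ELF5 and STAT5B had 25 each, a count that 12.4% of coding genes reached. STAT5A had 19 and AREG 16, while WNT4 had 9 and TNFSF11 had 6, a count that 80.7% of genes reached. Gene spans differ in length, from 9.87 kb at AREG to 89.2 kb at STAT5B. Per 100 kb of window the counts were 18.5 at ELF5, 15.3 at STAT5A, 14.6 at AREG, 13.2 at STAT5B, 7.16 at WNT4 and 4.13 at TNFSF11, against a median of 8.38. By strength the order was another one. The strongest R5020 PR peak near AREG had a -log10 q that 5.41% of coding genes matched or exceeded within 50 kb, and the one shared by STAT5A and STAT5B was matched by 7.96%. The share was 28.4% for ELF5, 29.2% for TNFSF11 and 66.3% for WNT4. Fold enrichment and -log10 q are the authors' own values for a peak, and here they rank peaks within 1 list only.

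WNT4, on the minus strand at chr1:22117313-22143097, had the lowest top PR peak of the 6 genes. All 9 of its PR peaks appeared with R5020 only, with folds of 4.86 to 21.1 and a median of 8.60. The strongest, chr1:22068651-22068973 with a fold of 21.1 and a -log10 q of 111, lay 48.3 kb beyond the 3′ end of WNT4 inside CDC42. Nearer to WNT4, 1 weak peak lay inside the span (fold 5.42) and 2 lay just upstream, with summits 0.968 kb (fold 4.95) and 2.38 kb (fold 10.1) from the start. No PR peak covered the start window. H3K27Ac did cover it in both lists, at chr1:22141947-22144301 with a fold of 8.81 with vehicle and at chr1:22141936-22143858 with a fold of 12.7 with R5020. The vehicle peak reached the PR peak at 0.968 kb, and the R5020 peak ended before it. No Maf1 and no POLR3G peak lay within 50 kb of WNT4.

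TNFSF11, on the plus strand at chr13:42562736-42608013, combined few PR peaks with high folds and had no acetylation. It was the only member with no H3K27Ac peak in either list, while 87.8% of coding genes had at least 1 with vehicle and 88.1% with R5020. Within 100 kb it had 1, with R5020. The 6 PR peaks were all from the R5020 list and all lay at or upstream of the start. The strongest, chr13:42537107-42537910, had a fold of 43.2 and a -log10 q of 298 and lay 25.2 kb upstream. The next was chr13:42553116-42554394 at 8.87 kb, with a fold of 31.8 and a -log10 q of 197, followed by chr13:42530787-42531144 at 31.8 kb, with a fold of 25.4. A peak at chr13:42562706-42563007, with a fold of 14.4, covered the more upstream of its starts. The window of the second start, chr13:42573902-42574201, held no PR, H3K27Ac, Maf1 or POLR3G peak in either list. The other two were weak: chr13:42525144-42525299 with a fold of 4.11 and chr13:42556540-42556783 with a fold of 3.36. A Maf1 peak, chr13:42537518-42537675 with a fold of 4.93, lay inside the strongest PR peak with R5020 only. Thus 4 of 6 PR peaks reached a fold of 10, against 27.9% of the whole R5020 list. That 0 of 6 met H3K27Ac follows from the lack of any such peak in the window. Of the whole R5020 PR list 32.0% met H3K27Ac of either treatment.

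AREG, on the plus strand at chr4:74445136-74455005, was the only member with strong PR peaks before the hormone was given. The vehicle peaks were chr4:74473335-74474009 (fold 17.6), chr4:74474789-74475743 (fold 15.8) and chr4:74480408-74480763 (fold 6.24). They lay 28.5, 30.1 and 35.4 kb past the start, downstream of the gene and in no coding span. The pair with the higher folds ranked among the top 3.06% and 3.24% of the vehicle list by -log10 q. With R5020 the same places held the 3 strongest peaks of the locus: chr4:74472876-74474036 with a fold of 42.4, chr4:74474293-74475666 with a fold of 54.0 and chr4:74480260-74481378 with a fold of 45.0. The middle one, with a -log10 q of 399.9, was in the top 0.394% of the R5020 list. All 3 lay in H3K27Ac of both treatments. With R5020 a PR peak of fold 32.6 and -log10 q 222 also covered the start, at chr4:74444696-74445912, where vehicle had none. H3K27Ac covered the AREG start in both lists, with folds of 12.7 with vehicle and 12.0 with R5020. Another R5020 PR peak, chr4:74464231-74464650 with a fold of 29.0, lay 19.3 kb past the start and met no H3K27Ac. Of the 16 R5020 PR peaks near AREG, 9 met H3K27Ac of either treatment, the highest share of the 6 genes.

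**Figure D2:**
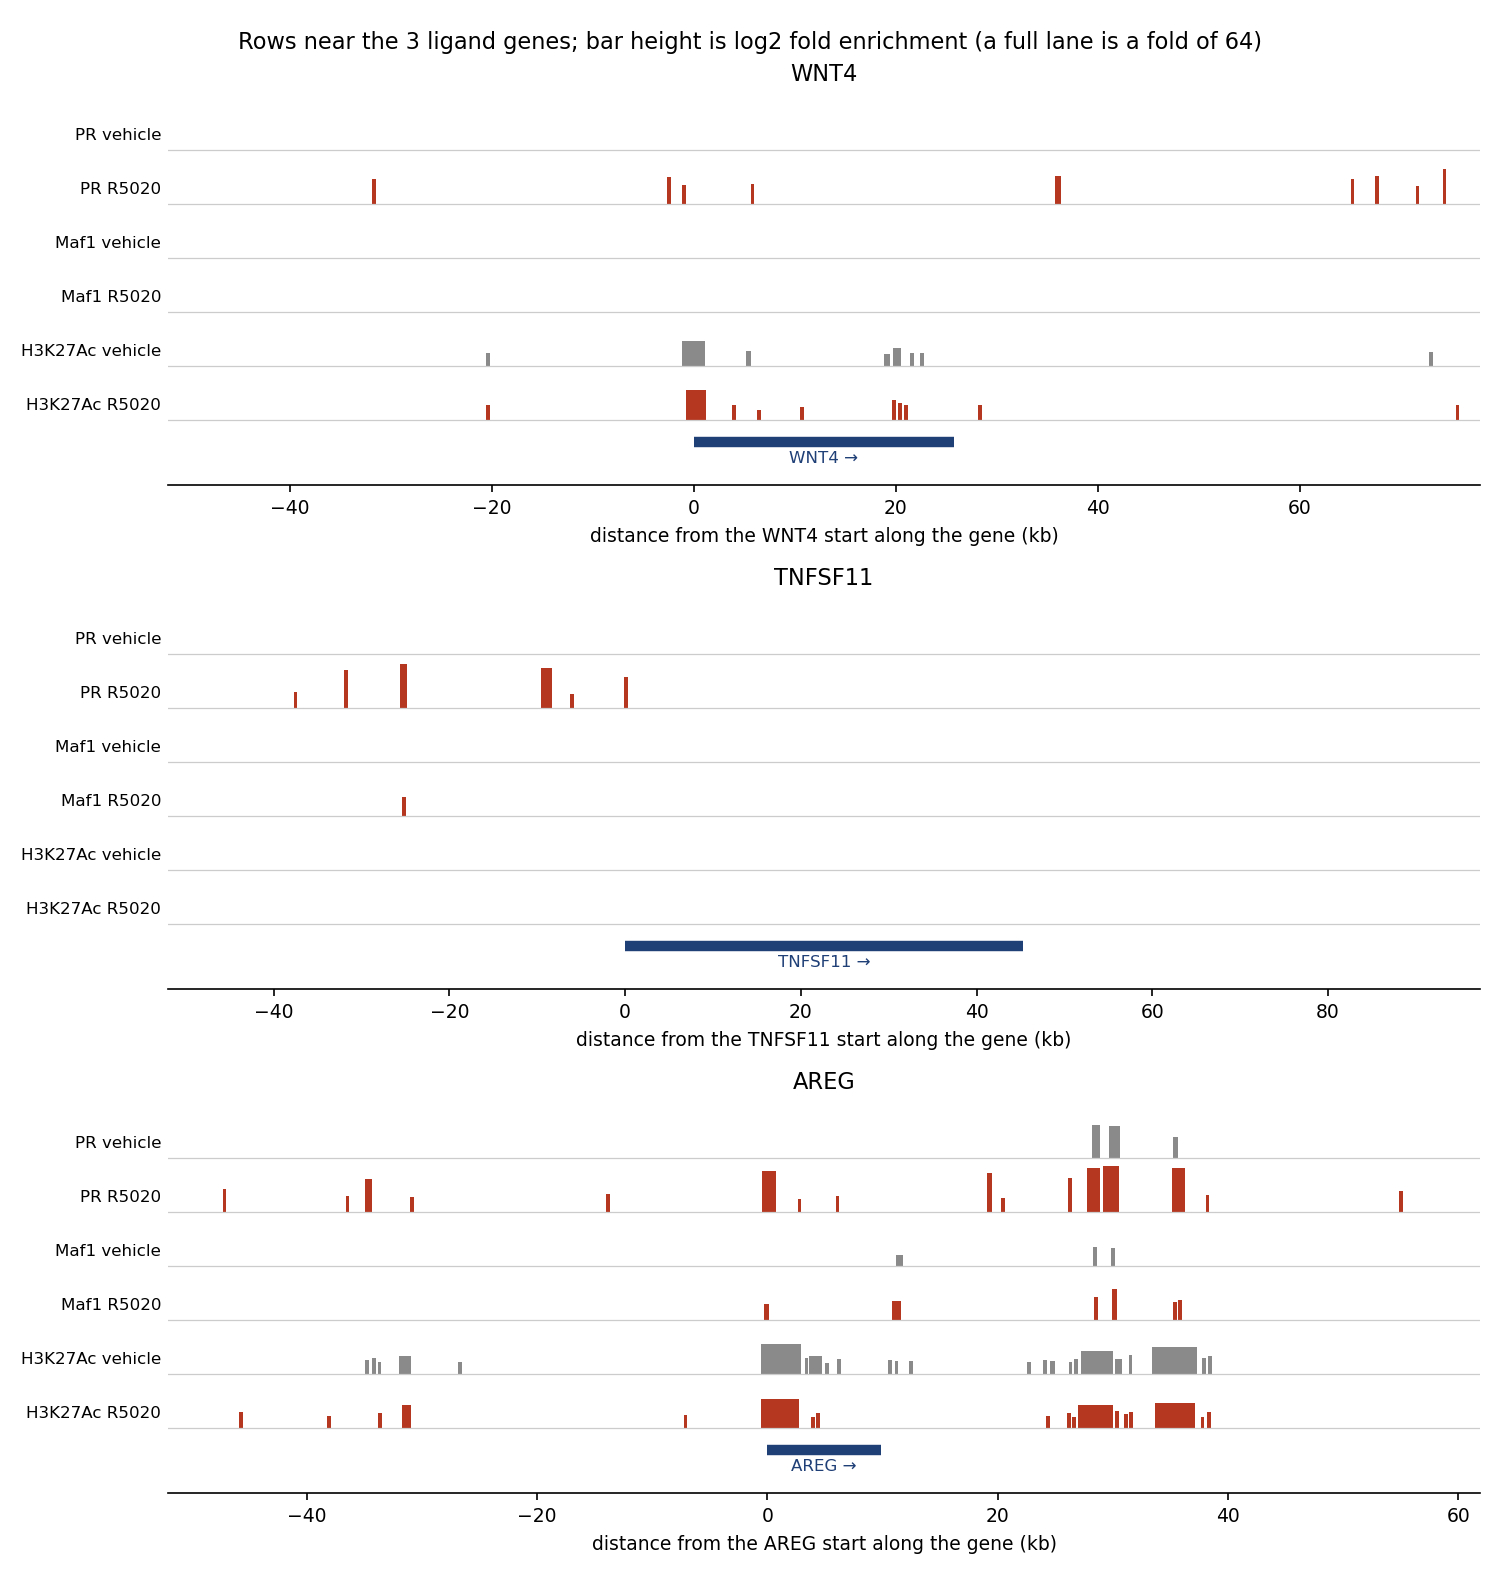
Peaks near WNT4, TNFSF11 and AREG by distance from the start site in kb (horizontal axis, in the direction of the gene), with 1 lane for each list and bar height giving log2 fold enrichment. The blue bar is the gene span, and narrow peaks are drawn at a minimum width. R5020 PR peaks stand upstream of TNFSF11 with no acetylation, and the AREG peaks present with vehicle lie 28.5 to 35.4 kb past its start.

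ELF5, on the minus strand at chr11:34478791-34513794, had the densest set of PR peaks. The start used here lies at 34511724, and the span reaches 2.07 kb further upstream. The single vehicle peak, chr11:34438649-34438896 with a fold of 2.47, lay at the start of CAT, the catalase gene, and stood 98.7% of the way down its list by -log10 q. With R5020 there were 25, of which 14 lay upstream, 3 inside the span and 8 downstream. The strongest stood in an upstream group, chr11:34537537-34538056 with a fold of 34.8 and a -log10 q of 302, whose summit lay 26.1 kb from the start. Beside it were chr11:34535999-34536624 (fold 20.1) and chr11:34533856-34534253 (fold 16.1). A further strong peak, chr11:34560468-34561085 with a fold of 34.5, lay 49.0 kb upstream. Inside the gene the strongest was chr11:34483356-34484619 with a fold of 17.6, which met no H3K27Ac. The start window had no PR peak, and the nearest PR summits lay 1.30 and 2.13 kb upstream with folds of 4.56 and 3.84. The peak of fold 3.84, chr11:34513402-34514037, lay over the upstream end of the ELF5 span. H3K27Ac covered the start in both lists, at chr11:34511031-34515775 with a fold of 10.9 with vehicle and at chr11:34511161-34515465 with a fold of 13.6 with R5020. At the strongest upstream PR peak, H3K27Ac folds were low in both lists: 3.28 at chr11:34537547-34537949 with vehicle, and 2.68 and 5.00 at chr11:34537617-34537839 and chr11:34538006-34538458 with R5020.

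STAT5A, on the plus strand at chr17:42287439-42311943, and STAT5B, on the minus strand at chr17:42199177-42288370, run away from each other, share 932 bp of span and have starts 11.0 kb apart. The STAT5B start used here lies at 42276391, and the STAT5B span reaches 12.0 kb further upstream. Their windows share most peaks, so the 2 genes are not separate observations. Of 27 R5020 PR peaks near either gene, 17 lay in both windows, and neither gene had a vehicle PR peak. The strongest, chr17:42294215-42295038 with a fold of 49.3 and a -log10 q of 387, lay inside STAT5A with its summit 7.24 kb past the STAT5A start. It was in the top 0.628% of the R5020 list. No vehicle H3K27Ac peak met it. With R5020, H3K27Ac peaks at chr17:42294031-42294419 (fold 3.57) and chr17:42294563-42295334 (fold 5.00) overlapped it. Others flanked it at chr17:42293466-42293880 (fold 3.54), chr17:42296192-42296426 (fold 4.50) and chr17:42298962-42300448 (fold 5.10). None of these 5 met a vehicle H3K27Ac peak. Near STAT5A 8 of the 17 R5020 H3K27Ac peaks met one, and over the whole R5020 list 58.3% did, so peaks without one were common. No PR peak covered a STAT5A start window.

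The STAT5B start did hold a PR peak with R5020, but a weak one: chr17:42276174-42276589 had a fold of 3.67 and a -log10 q of 5.86. By fold, the acetylation there was the highest near any of the 6 genes in either list, with values of 20.6 with vehicle and 18.2 with R5020. The 2 strongest PR peaks assigned to STAT5B besides the one in STAT5A lay in other genes. The first was chr17:42153172-42154228 in RAB5C, an endosomal GTPase gene, with a fold of 47.4 and a -log10 q of 349. The second was chr17:42329062-42329977 in STAT3, with a fold of 31.6. Inside STAT5B itself the strongest PR peak was chr17:42211860-42212685 with a fold of 13.8, which met no H3K27Ac. When peaks were kept only if the member was their nearest coding gene, STAT5A kept 5 and STAT5B 13 R5020 PR peaks.

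**Figure D3:**
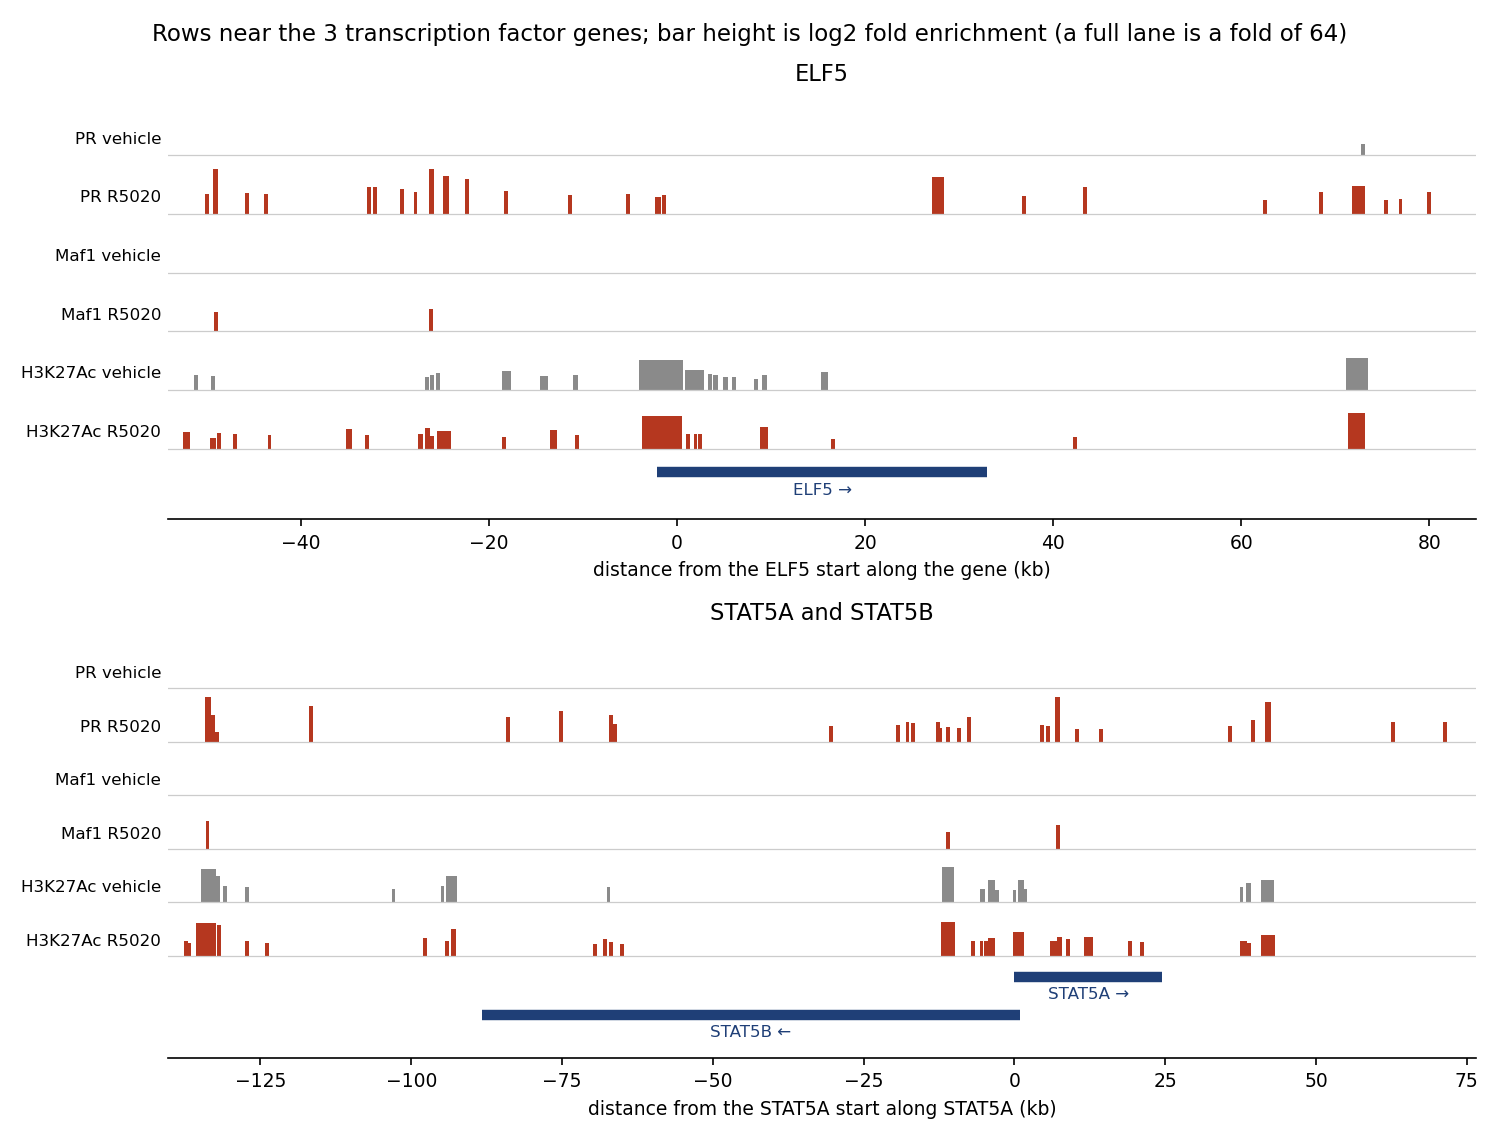
Peaks near ELF5 by distance from its start, and near STAT5A and STAT5B by distance from the STAT5A start, in kb (horizontal axis). There is 1 lane for each list, and bar height gives log2 fold enrichment. Blue bars are gene spans, with arrows for their direction. The strongest ELF5 peak stands 26.1 kb upstream, and the strongest STAT5A peak 7.24 kb inside the gene above H3K27Ac peaks of the R5020 list.

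At the start sites, R5020 PR peaks covered a window of 3 members, TNFSF11, AREG and STAT5B, and of 48.3% of the 15843 coding genes that have a start window in the table. H3K27Ac of either treatment covered a window of every member but TNFSF11, and of 68.5% of those genes. R5020 Maf1 covered the windows of AREG and STAT5B, and of 32.2% of those genes. The spans of ELF5 and STAT5B reach 2.07 and 12.0 kb upstream of their only start in the table, and these upstream ends have no window. At ELF5 the R5020 PR peak of fold 3.84 covered that end, so its absence from the PR count holds for the tabled start only. The strongest PR peak of each gene lay away from its start, between 7.24 kb for STAT5A and 74.3 kb for WNT4.

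H3K27Ac peaks near the 6 genes numbered 68 with vehicle and 80 with R5020. Counts near WNT4 were 8 and 10, near AREG 24 and 18, near ELF5 18 and 22, near STAT5A 10 and 17 and near STAT5B 18 and 30, against all-gene medians of 7 and 8. More R5020 than vehicle peaks lay near 4 members and 56.0% of coding genes, and fewer lay near AREG and 18.6% of coding genes. The covered length moved less, from 55.6 to 56.7 kb in all. It was lower with R5020 near WNT4 (5.57 and 4.42 kb), AREG (17.9 and 14.0 kb) and ELF5 (16.4 and 16.0 kb), and higher near STAT5A (9.28 and 14.1 kb) and STAT5B (15.7 and 22.2 kb). The direction of the counts also depended on which peaks were kept. With equal numbers from both lists the total difference became -5 and that of ELF5 -1, and with a -log10 q of at least 5 the total became -3 and STAT5B -1. With a fold of at least 5 both STAT5 genes came to -1, and within 10 kb ELF5 came to -2. The lower count at AREG kept its sign or came to 0 under every such choice.

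Of the 68 vehicle H3K27Ac peaks, 37 overlapped an R5020 H3K27Ac peak by at least 1 bp, which is 54.4% (95% Wilson interval 42.7% to 65.7%), against 67.2% in the whole list. In the other direction it was 42 of 80, or 52.5% (41.7% to 63.1%), against 58.3%. These intervals cover counting error only, and neighbouring peaks are not independent. The large start peaks of WNT4, AREG, ELF5 and STAT5B were in both lists. R5020 PR peaks met 5 of the 38 H3K27Ac peaks seen with R5020 only and 17 of the 42 seen with both treatments, which is 13.2% (5.75% to 27.3%) and 40.5% (27.0% to 55.5%). Over the whole R5020 H3K27Ac list the shares were 21.3% and 47.9%.

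Among the 83 R5020 PR peaks, 25 met H3K27Ac of either treatment, which is 30.1% (21.3% to 40.7%), against 32.0% of the whole R5020 PR list. It was 8.43% when each peak had to share 50% of its length with the other. By gene the counts were 9 of 16 near AREG, 8 of 25 near ELF5, 7 of 25 near STAT5B, 3 of 19 near STAT5A, 1 of 9 near WNT4 and 0 of 6 near TNFSF11. A fold of at least 10 was reached by 26 peaks, or 31.3% against 27.9% of the whole list. Acetylation was met by 13 of these 26 (32.1% to 67.9%) and by 12 of the 57 below that fold (12.5% to 33.3%). The intervals overlap, and over the whole list 49.1% and 25.5% of the same classes met it, so the members' shares were near those of the list.

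**Figure D4:**
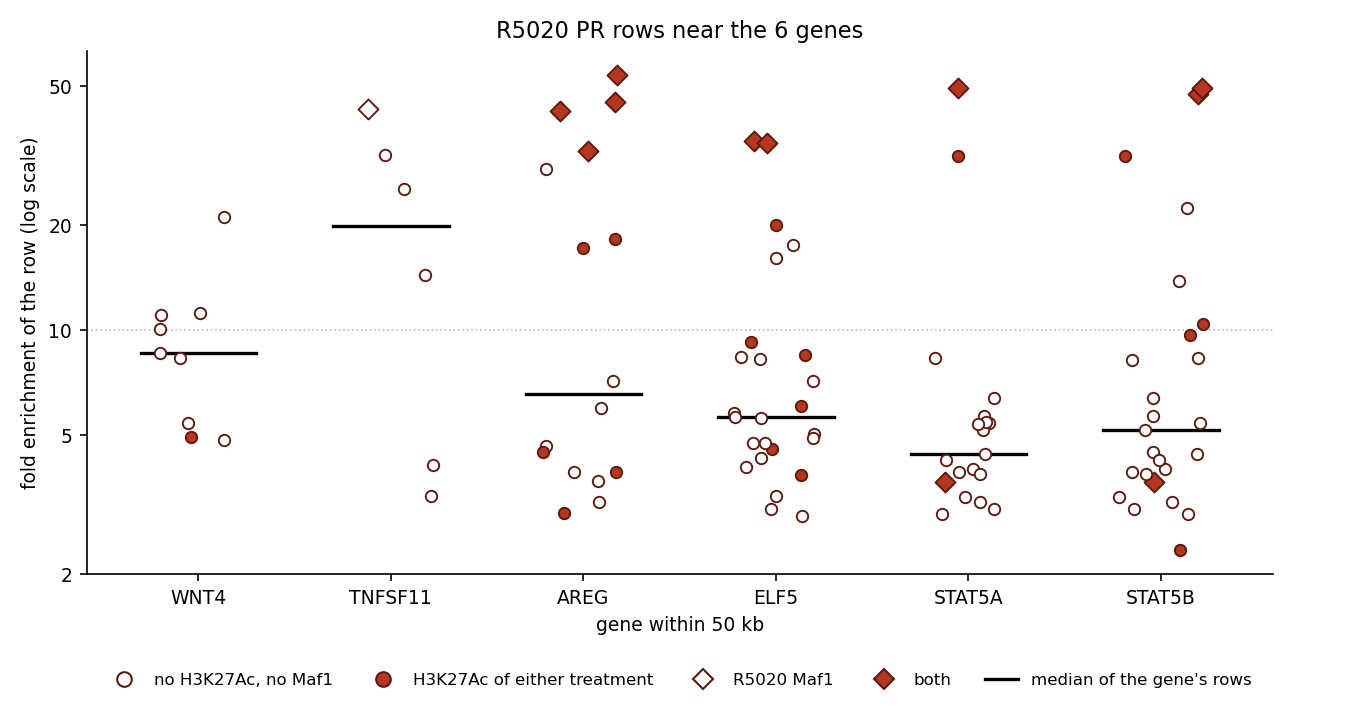
Fold enrichment of every R5020 PR peak (log scale) by the gene within 50 kb, with filled symbols for overlap with H3K27Ac of either treatment and diamonds for overlap with R5020 Maf1. Black lines are medians, and the dotted line is a fold of 10. Horizontal scatter is arbitrary, and peaks in both STAT5 windows appear under both genes. TNFSF11 has the highest median, 19.9, with open symbols only, and WNT4 has no diamond.

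Maf1 peaks near the 6 genes numbered 3 with vehicle, all near AREG, and 12 with R5020. At least 1 vehicle peak lay near 26.5% of coding genes. At least 1 R5020 peak lay near 5 members, all but WNT4, and near 70.4% of coding genes, and 67.7% had more with R5020. The whole lists held 3049 and 22683 peaks, and with equal numbers the total difference was -1 and that of AREG -2. Near AREG the vehicle peaks were chr4:74456327-74456940 (fold 2.62), chr4:74473526-74473692 (fold 4.98) and chr4:74475052-74475294 (fold 4.70). The R5020 peaks there were chr4:74475040-74475469 (fold 13.8), chr4:74473527-74473787 (fold 7.42), chr4:74480866-74481129 (fold 5.72), chr4:74455953-74456744 (fold 5.13), chr4:74480427-74480642 (fold 4.54) and chr4:74444879-74445250 (fold 4.11), the last over the start. ELF5 had chr11:34537730-34537957 (fold 5.88) and chr11:34560648-34560868 (fold 4.44), which lie in its 2 strongest PR peaks. The STAT5 genes shared chr17:42294430-42294886 (fold 7.72) and chr17:42276275-42276594 (fold 4.19), and STAT5B also had chr17:42153360-42153952 (fold 10.8) in RAB5C.

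Maf1 and PR peaks near the members were compared by overlap and by summit. Of the 12 R5020 Maf1 peaks, 11 overlapped an R5020 PR peak, which is 91.7% (64.6% to 98.5%), against 82.1% in the whole list, and the exception was chr4:74455953-74456744 near AREG. With 50% of both peaks in common it was 25.0%. The summits were 2 to 497 bp apart with a median of 30 bp, against a median of 40 bp over 18633 such overlaps in the whole list. Seen from PR, Maf1 met 9 of the 26 peaks of fold 10 or more and 1 of the 57 others, the weak peak at the STAT5B start. The whole list gave 24.9% and 4.53% for the same classes. The strongest PR peak carried Maf1 at every gene except WNT4, and at 45.8% of coding genes with an R5020 PR peak. STAT5A and STAT5B have that peak in common, so the 5 genes rest on 4 distinct peaks.

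The polymerase III subunits were mostly absent from these loci. No POLR3A, POLR3C, POLR3GL or Brf1 peak lay within 50 kb of any member in either list. Such peaks were rare near coding genes in general: 3.66% with vehicle and 3.99% with R5020 for POLR3A, 5.85% and 5.97% for POLR3C, 2.24% and 1.75% for POLR3GL and 2.27% and 6.05% for Brf1. POLR3G differed, with 28 peaks in each list near 4 members, AREG, ELF5, STAT5A and STAT5B. The shares of coding genes with a POLR3G peak were 66.9% with vehicle and 62.1% with R5020. The R5020 groups of POLR3C, POLR3G and POLR3GL follow the sample titles, and the treatment tag of 4 of their libraries names ethanol instead. They are replicate 1 of each of the 3 antibodies and also replicate 2 of POLR3C. For these 3 subunits the direction between treatments is that of the titles.

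POLR3G peaks were weak throughout, with folds of 2.24 to 4.13. STAT5B had 25 with vehicle and 23 with R5020, and STAT5A had 12 and 16, all of them also in the STAT5B window. With vehicle the peak of highest -log10 q was the same for both, chr17:42275421-42275823 (fold 3.51), in STAT5B just inside its start. With R5020 it was chr17:42310143-42310499 (fold 3.15) for STAT5A, inside that gene, and chr17:42153781-42154054 (fold 3.80) for STAT5B, in RAB5C. AREG had chr4:74444970-74445735 over its start with vehicle only (fold 4.13), chr4:74479702-74479960 with vehicle (fold 2.40) and chr4:74480375-74480601 with R5020 (fold 3.50). ELF5 had chr11:34512990-34514467 with vehicle (fold 2.97). With R5020 it had chr11:34438694-34439440 (fold 3.26), chr11:34513086-34513503 (fold 3.23), chr11:34512232-34512447 (fold 2.86) and chr11:34538982-34539292 (fold 2.24). More peaks with R5020 were counted near ELF5 and STAT5A, as near 17.6% of coding genes, and fewer near AREG and STAT5B, as near 43.3%. The sign turned for STAT5A within 100 kb (-5) and at a -log10 q of at least 5 (-1), and for STAT5B with equal numbers (2). Of the 28 vehicle peaks 4 overlapped an R5020 one, or 14.3% (5.70% to 31.5%), against 39.2% of the whole list. The STAT5B window holds 25 of these 28, and neighbouring peaks are not independent, so the share is mostly that of 1 locus. Only 3 of the 28 had a -log10 q of at least 5, and the whole list was not matched for strength. WNT4 and TNFSF11 had no POLR3G peak.

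Genes that work with the 6 members were counted in the same way, from lists chosen by role. These counts were not scaled to gene length, and a longer gene has a longer window. Over all coding genes the PR medians were 0 with vehicle and 12 with R5020. More R5020 than vehicle PR peaks lay near 11 of 12 receptor and processing genes, with medians of 0.5 and 18. LRP5, a Wnt co-receptor, had 2 and 31, and EGFR, the amphiregulin receptor, had 1 and 25. The exception was TNFRSF11B, which encodes the RANKL decoy receptor osteoprotegerin and had no PR peak in either list. TNFRSF11A, the RANK gene, had 0 and 7. These 2 receptors were named after their values had been seen. Among sister ligands the count was 11 of 11, with medians of 0 and 12, led by TGFA (1 and 31) and WNT5B (1 and 21). The STAT5 axis gave 8 of 8, with medians of 2.5 and 31.5. PRLR, the prolactin receptor that acts through STAT5, had 4 and 79, and GHR, the growth hormone receptor, had 6 and 78. STAT3, in the STAT5 axis list, neighbours the STAT5 genes, and its strongest PR peak is the one inside STAT5A. Peaks that lie in both windows are therefore counted again in that list. Such sharing between the members and the other listed genes is not given here, so those lists may not be separate from the members.

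Among alveolar and luminal fate genes the count was 9 of 9, with medians of 3 and 18. EHF, an ETS factor related to ELF5, had 8 and 39, and the pioneer factor FOXA1 had 8 and 29. The 5 milk protein genes had medians of 0 and 2, with LTF at 0 and 9 and LALBA at 0 and 6. The 4 other progesterone-related paracrine genes had medians of 0 and 5, with PTHLH at 0 and 9 and CXCL12 at 0 and 8. R5020 Maf1 peaks, found near 70.4% of coding genes, lay near 10 of 12 receptor and processing genes, 8 of 11 sister ligands, 7 of 8 STAT5 axis genes, 8 of 9 fate genes, 0 of 5 milk protein genes and 0 of 4 other paracrine genes. These lists are small and are described by their counts. For PR the share of all coding genes with more R5020 peaks was 96.9%.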

How the data were processed

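T47D cells given vehicle or R5020 for 1 h were profiled by ChIP-seq with 8 antibodies. Per the submitters' processing notes, cutadapt, Bowtie2, MACS2 and genome build hg38 were used, and versions, settings, the control and the merging of replicates are not given in the sources used here. The authors deposited 1 narrowPeak list for each antibody and treatment, with a fold enrichment, which is a ratio, and a -log10 q-value for each peak. Read depth is unknown.

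Samples were grouped by title. Peaks on the 22 autosomes, X and Y were counted within 50 kb of RefSeq GRCh38.p14 gene spans. Strand and starts came from the RefSeq promoter table, and exons and introns were not assigned. Peaks overlapped when they shared at least 1 bp, and shares carry 95% Wilson intervals. Counts were set beside those of 20037 coding genes, or of 15843 with a start window. No test was run. Members and lists were chosen with earlier results of these data known. All members were named, with the peak of highest -log10 q in each list and every peak where a gene had 5 or fewer, and the 2 genes with most R5020 PR peaks in each role list. Python 3.11.15, numpy 2.4.6 and pandas 2.3.3 were used, and the overlap code was tested on simulated data. Alternatives were other windows, stricter peaks, equal list lengths, nearest genes and other overlaps.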

Additional observations from a re-analysis of the deposited data

How the results depend on the processing

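Of 168 differences in peak number between treatments, over 4 antibodies, 6 genes and their total, and 6 alternatives, 12 changed sign, 84 changed by more than 1.5 times or came to or left 0, and 72 stayed within that range. The 72 include differences of 0 that stayed 0, such as POLR3G near TNFSF11. None of the 42 PR differences changed sign, but 27 of them changed by more than 1.5 times or came to 0. With equal numbers of peaks from both lists, those of WNT4 and AREG came to 0. Totals are given as vehicle, then R5020. Within 10 kb they were 0 and 35 for PR, 34 and 40 for H3K27Ac, 1 and 4 for Maf1 and 18 and 16 for POLR3G, and H3K27Ac near ELF5 came to -2. Within 100 kb PR with R5020 came to 152, H3K27Ac to 143 and 174, Maf1 with R5020 to 22 and POLR3G to 58 and 50, with -5 for POLR3G near STAT5A. A -log10 q of at least 5 left 32 and 29 H3K27Ac peaks, a difference of -3, with -1 near STAT5B. It left 3 and 3 POLR3G peaks, with -1 near STAT5A. A fold of at least 5 left 50 PR peaks with R5020, 15 and 16 of H3K27Ac with -1 near both STAT5A and STAT5B, 0 and 7 of Maf1, and 0 and 0 of POLR3G. With equal numbers of peaks from both lists, PR with R5020 came to 8 and Maf1 with R5020 to 2. H3K27Ac then differed by -5 in all and -1 near ELF5, Maf1 by -1 in all and -2 near AREG, and POLR3G by 2 near STAT5B. Assigning peaks to the nearest coding gene left 13 and 16 POLR3G peaks. Requiring 50% of both peaks in common gave shares of 8.43% for PR in H3K27Ac, 25.0% for Maf1 in PR, and 36.8% and 31.2% for H3K27Ac shared between treatments, from vehicle and from R5020. A gap of up to 500 bp gave 44.6% for PR in H3K27Ac, and 73.5% and 66.2% for the H3K27Ac shares. The cause was not tested in any of these cases. No paired analysis was possible because there is 1 list for each group of 3 libraries and it carries no replicate values, and for the same reason no replicate could be left out.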

Other observations

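Other genes reach into the windows of the 6 members, and several carried peaks at their own starts. The starts of STAT3 and CDC42 lie outside those windows, so the peaks there are not among those counted near the members. At the start of STAT3, a relative of the STAT5 genes that answers to interleukin signals, the strongest PR fold was 3.47 with vehicle and 34.6 with R5020. H3K27Ac there had folds of 18.7 and 27.9, and Maf1 folds of 4.54 and 4.47. At the start of CAT, next to ELF5, PR had folds of 2.47 and 9.23 and H3K27Ac of 12.4 and 16.9, with no Maf1. The start of CDC42, next to WNT4, had PR and Maf1 with R5020 only (folds 7.85 and 2.35) and H3K27Ac of 22.5 and 27.4, more than the 8.81 and 12.7 at the WNT4 start. RAB5C, near STAT5B, had PR with R5020 only in its start window (fold 2.34), H3K27Ac of 17.4 and 17.9 and no Maf1 there. Inside RAB5C but outside that window, R5020 PR peaks had folds of 47.4 and 10.4, and an R5020 Maf1 peak had a fold of 10.8. GHDC had H3K27Ac of 9.48 and 10.6 and neither PR nor Maf1, and KCNH4 and HCRT had none of the 3. These genes were named after their values had been seen, and folds are the authors' own within each list.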
